A study of Rattus norvegicus with 16 samples.

Results

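The genes described here encode the receptors for glutamate and the protein scaffold beneath them, the postsynaptic density, in the brain of the rat. They were taken from a list of 39 symbols: 4 AMPA receptor subunits, 5 kainate receptor subunits, 6 NMDA receptor subunits, 6 metabotropic receptors, 2 auxiliary subunits of AMPA receptors, 2 vesicular glutamate transporters, 4 membrane-associated guanylate kinases (MAGUKs), 4 scaffolds of the Shank and Dlgap families, 2 Homer proteins, 3 genes of calmodulin signalling and 1 adhesion molecule. A gene was kept where its mean over all libraries of a region was at least 1 FPKM, a level in sequenced fragments that is scaled by transcript length and by the size of the library. That left 38 of the 39 listed genes, out of 16514 symbols in the series, with 36 in hypothalamus and 38 in hippocampus. Where a symbol had several loci, the locus with the highest mean was used. Gria2 was not analysed in hypothalamus and Cacng8 was not analysed in either region, while Shank2 had a row in hypothalamus but fell under the minimum there.

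Glutamate is the main excitatory transmitter of the brain. Vesicular transporters load it into synaptic vesicles, AMPA, kainate and NMDA receptors turn its release into current and calcium entry, and metabotropic receptors signal through G proteins. On the receiving side, MAGUK proteins bind receptor tails and connect through Dlgap proteins to Shank and Homer, while calcium that enters acts through calmodulin and its kinase, a pathway studied in the hippocampus for its part in synaptic plasticity and memory. The hypothalamus, which governs feeding and hormone release, also holds glutamate neurons, and these are known to rely on a different vesicular transporter.

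Messenger RNA had been sequenced in the hypothalamus and hippocampus of male Sprague Dawley rats that received fructose for 6 weeks or were left untreated (control). The labels list 4 samples in each of the 4 groups and do not say whether each is a separate rat, so a p-value here reflects the spread between samples that may be technical. All 15 libraries with a column were used: 3 fructose and 4 control libraries of hypothalamus, and 4 fructose and 4 control libraries of hippocampus, with hypothalamus fructose replicate 4 not analysed here. With FPKM alone and no counts, sequencing depth could not be read for any library.

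The libraries carried the markers of their labelled region. A list of 10 hypothalamic genes added up to between 3339 and 8927 FPKM in hypothalamus and between 3.80 and 28.6 FPKM in hippocampus, where Otp was at 0 in every library. The list for hippocampus and cortex added up to between 29.998 and 35.4 FPKM in hypothalamus and between 214 and 376 FPKM in hippocampus, with Fibcd1 at 0 throughout and Emx1 not analysed. The replicate 1 libraries of fructose and control stood apart from the others: both lay outside the range of all other libraries, on the same side, for 20 of 36 glutamate genes in hypothalamus (55.6%, against 51.2% of all 11498 loci tested) and for 10 of 38 in hippocampus (26.3%, against 28.4% of 11385). A list of 6 meninges markers, none of them at 0 throughout, moved with the groups: it added up to between 13.9 and 96.1 FPKM in fructose hypothalamus, against 113 to 207 FPKM in control hypothalamus, and to between 113 and 396 FPKM in fructose hippocampus, against 17.8 to 288 FPKM in control hippocampus. The part of these tissue markers in the results was not tested.

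The control libraries of the regions were compared first. The tables of the regions may have been scaled separately, so these differences are described without a test, as the mean of log2(FPKM + 1) in hypothalamus minus that in hippocampus. Of 37 glutamate genes with a row in both tables, 9 had all 4 hypothalamus values above all 4 hippocampus values (24.3%, against 34.0% of 10844 symbols) and 17 had all 4 below (45.9%, against 17.6%). With a difference of at least 1 on the log2 scale as well, 7 were higher (18.9%, against 15.9%) and 13 lower (35.1%, against 8.22%). Their median difference was -0.59, against 0.20 over all symbols. Once that shift of all symbols was taken off, 7 were higher (18.9%, against 25.0%) and 20 lower (54.1%, against 25.0%): Grik3 and Grm4 then overlapped, and Grik5, Grin2c and Dlg2 lay below throughout. In bulk tissue, fewer cells of a type and less RNA per cell cannot be told apart.

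**Figure D1:**
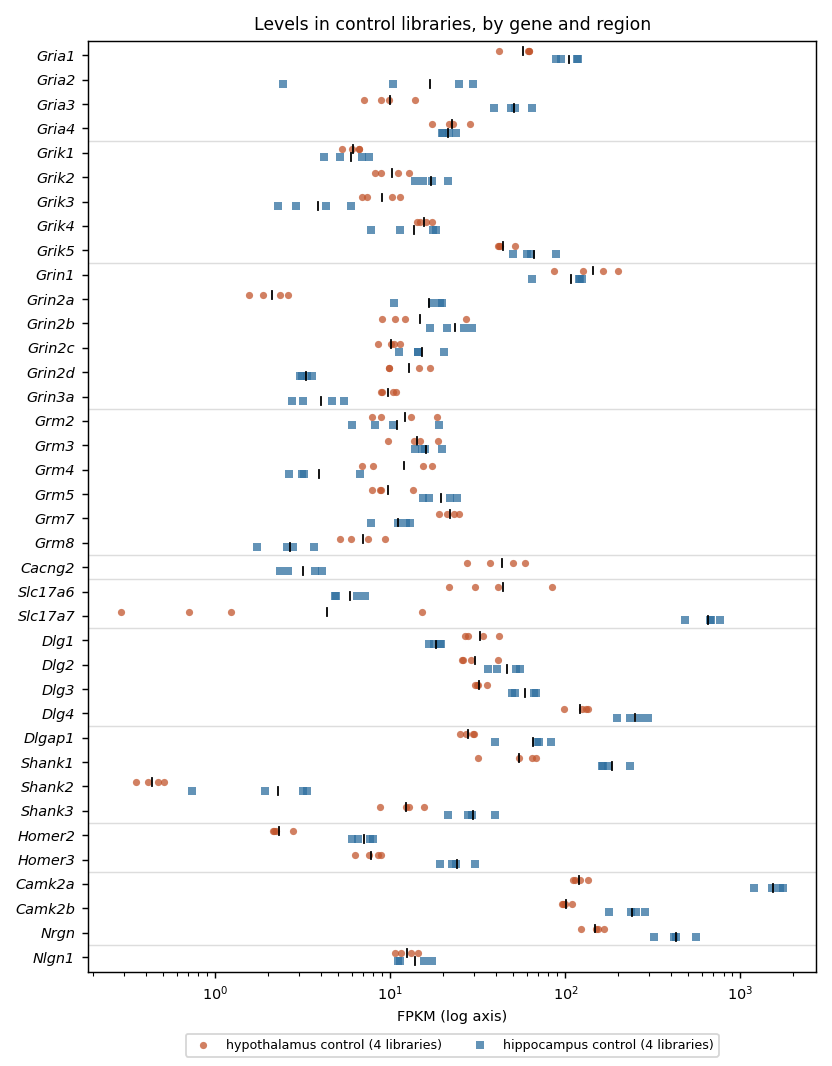
FPKM of each glutamate gene in the 4 control libraries of hypothalamus (circles) and of hippocampus (squares), on a log axis, with the mean of each group as a black tick and grey lines between gene classes. Slc17a7 and Camk2a lie far lower in hypothalamus than in hippocampus, Cacng2 and Slc17a6 far higher, and all 4 listed Shank and Dlgap genes lie lower in hypothalamus.

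The transporters that fill vesicles with glutamate showed opposite patterns in the regions. Slc17a6, which encodes VGLUT2, the transporter typical of subcortical neurons, had 83.6, 41.1, 30.5 and 21.7 FPKM in control hypothalamus, against 4.89, 4.83, 6.47 and 7.19 FPKM in control hippocampus. Slc17a7, which encodes VGLUT1, the transporter typical of cortical and hippocampal neurons, had 15.2, 0.711, 0.289 and 1.22 FPKM in control hypothalamus, against 673, 768, 681 and 482 FPKM in control hippocampus. The groups did not overlap for either gene, and the first hypothalamus library alone was high for Slc17a7. The mean of Slc17a6 was 7.57-fold higher in hypothalamus (44.2 ± 27.4 FPKM, against 5.84 ± 1.17 FPKM in hippocampus; SD, n = 4 each), a log2 difference of 2.56. For Slc17a7 the log2 difference was -7.75, the largest of the 37 genes, and -8.54 without the replicate 1 libraries.

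Among the other genes, Cacng2 and Camk2a lay farthest apart. Cacng2 encodes stargazin, which brings AMPA receptors to the membrane and slows their closing. It had 27.5, 50.1, 36.9 and 58.5 FPKM in control hypothalamus, against 2.33, 4.05, 3.71 and 2.60 FPKM in control hippocampus, a 13.6-fold higher mean and a log2 difference of 3.37. Camk2a, the alpha subunit of the calcium- and calmodulin-dependent kinase of the postsynaptic density, had 110.5, 134, 121 and 113 FPKM in control hypothalamus, against 1519, 1756, 1691 and 1193 FPKM in control hippocampus. Its mean was 12.9-fold higher in hippocampus, a log2 difference of -3.66.

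The stretches of 250 bases before the start of these 4 genes are shown because the genes differed most between the regions, Slc17a6 and Cacng2 upward and Slc17a7 and Camk2a downward in hypothalamus. They come from RefSeq on build GRCr8 and were matched by symbol, since the deposited tables use another build; 27 of the 39 listed genes had an entry. Each is written 5′ to 3′ on the strand of its gene, and capitals mark the E-box motif CANNTG, which reads the same on both strands and is bound by basic helix-loop-helix factors. Slc17a6 lies at chr1:110348197-110348446 (plus strand), Cacng2 at chr7:111577758-111578007 (minus strand), Slc17a7 at chr1:104785955-104786204 (plus strand) and Camk2a at chr18:56648930-56649179 (plus strand).
Slc17a6: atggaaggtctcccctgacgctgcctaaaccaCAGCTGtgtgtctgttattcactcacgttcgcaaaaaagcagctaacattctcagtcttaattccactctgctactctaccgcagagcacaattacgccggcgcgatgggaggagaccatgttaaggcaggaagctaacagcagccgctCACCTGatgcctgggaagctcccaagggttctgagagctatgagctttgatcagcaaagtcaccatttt
Cacng2: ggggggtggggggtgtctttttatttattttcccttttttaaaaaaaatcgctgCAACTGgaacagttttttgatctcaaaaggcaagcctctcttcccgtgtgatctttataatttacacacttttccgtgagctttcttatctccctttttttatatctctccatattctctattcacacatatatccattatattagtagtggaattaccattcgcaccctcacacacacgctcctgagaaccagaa
Slc17a7: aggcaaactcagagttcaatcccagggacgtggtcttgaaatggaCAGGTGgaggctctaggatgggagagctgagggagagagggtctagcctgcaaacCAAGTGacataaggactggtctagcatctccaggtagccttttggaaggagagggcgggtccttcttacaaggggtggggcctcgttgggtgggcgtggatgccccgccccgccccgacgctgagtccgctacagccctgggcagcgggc
Camk2a: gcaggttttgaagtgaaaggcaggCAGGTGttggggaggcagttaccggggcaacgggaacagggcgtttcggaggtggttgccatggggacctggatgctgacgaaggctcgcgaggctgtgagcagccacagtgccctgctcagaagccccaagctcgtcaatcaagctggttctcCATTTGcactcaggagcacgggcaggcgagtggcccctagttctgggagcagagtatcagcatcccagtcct
Cacng2 held 1 E-box and the promoters of Slc17a6, Slc17a7 and Camk2a held 2 each, and 65.5% of 33469 promoters of the same length held at least 1. The palindromic cAMP response element TGACGTCA was in none of these windows and in 1.59% of all promoters. The stretch before Cacng2 had 38.4% G and C, against a median of 51.2% over all promoters, and those of Slc17a7 and Camk2a had 61.2% and 60.4%.

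The AMPA receptor subunits form the channel that carries fast transmission. Gria1 was the highest of the AMPA subunits analysed in each region, a ranking that leaves out Gria2 in hypothalamus. It had 41.9, 62.0, 62.1 and 61.5 FPKM in control hypothalamus, against 94.8, 116, 118 and 87.8 FPKM in control hippocampus. Its hypothalamus values were all lower (log2 difference -0.87). The deposited status of the Gria1 values of hippocampus control replicates 2 and 3 was FAIL, and replicates 1 and 4 also lay above all hypothalamus values. Gria3 differed more, with 13.9, 9.88, 8.84 and 7.04 FPKM in control hypothalamus, against 39.1, 64.2, 48.9 and 51.2 FPKM in control hippocampus, a log2 difference of -2.26. Gria4 overlapped, at 22.6 ± 4.64 FPKM in hypothalamus, against 21.3 ± 1.89 FPKM in hippocampus (SD, n = 4 each). Gria2 encodes the subunit that keeps calcium out of the channel. In hippocampus it had 2.44, 24.7, 10.4 and 29.8 FPKM in the control libraries, the widest spread of all 38 genes there (within-group SD 1.47 on the log2 scale).

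Of the 5 kainate receptor subunits, 3 overlapped between the regions. Grik5, a subunit that forms channels only with other kainate subunits, was the highest of the class, with 51.5, 41.7, 41.2 and 42.4 FPKM in control hypothalamus, against 88.0, 64.0, 60.6 and 50.5 FPKM in control hippocampus. These values overlapped. Grik3 was higher in hypothalamus (8.99 ± 2.20 FPKM, against 3.84 ± 1.61 FPKM in hippocampus), overlapping once the shift of all symbols was taken off, and Grik2 was lower (10.2 ± 2.10 FPKM, against 17.0 ± 3.32 FPKM in hippocampus). Grik1 and Grik4, at log2 differences of 0.06 and 0.24, overlapped.

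The NMDA receptor needs its common subunit, Grin1, and subunits of the GluN2 type, which set how long the channel stays open. Grin1 had 86.0, 164, 125 and 199.6 FPKM in control hypothalamus, against 119, 121, 125 and 64.4 FPKM in control hippocampus, with overlapping groups. Grin2a, whose product takes over at forebrain synapses as they mature, had 2.61, 2.35, 1.86 and 1.55 FPKM in control hypothalamus, against 19.3, 17.4, 19.6 and 10.5 FPKM in control hippocampus. All hypothalamus values were lower, with a 7.97-fold higher mean in hippocampus (log2 difference -2.49). Grin2d, which gives slowly closing channels, ran the other way, with 9.77, 14.5, 9.78 and 16.9 FPKM in control hypothalamus, against 3.57, 3.06, 3.36 and 3.12 FPKM in control hippocampus (log2 difference 1.65). Grin3a, which lowers calcium entry through the receptor, was also higher in hypothalamus, at 9.73 ± 0.989 FPKM, against 4.00 ± 1.27 FPKM in hippocampus (log2 difference 1.13). Grin2b and Grin2c overlapped, and the deposited status of the Grin2b value of hippocampus control replicate 2 was FAIL.

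Metabotropic receptors differed by type. The group III receptors Grm4, Grm7 and Grm8, which sit largely on nerve endings and lower transmitter release, were all higher in hypothalamus, with log2 differences of 1.36, 0.95 and 1.12, although Grm4 overlapped once the shift of all symbols was taken off. Grm7 was the highest metabotropic receptor of hypothalamus, with 24.7, 23.1, 19.0 and 21.1 FPKM in control hypothalamus, against 11.04, 13.0, 12.3 and 7.72 FPKM in control hippocampus. Grm5, a group I receptor on the receiving side that raises calcium, was the highest in hippocampus and lower in hypothalamus: 13.4, 8.68, 8.84 and 7.89 FPKM in control hypothalamus, against 15.3, 21.9, 24.1 and 16.7 FPKM in control hippocampus. These groups did not overlap (log2 difference -0.94). The group II receptors Grm2 and Grm3 overlapped, with log2 differences of 0.17 and -0.19.

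Beneath the receptors, 8 of the 10 listed MAGUK, Shank, Dlgap and Homer genes had all values lower in hypothalamus, against 17.6% of 10844 symbols. Among the MAGUKs, Dlg4, the most abundant in both regions, had 98.5, 134, 131 and 124 FPKM in control hypothalamus, against 298, 268, 235 and 197 FPKM in control hippocampus. Its values did not overlap (log2 difference -1.02), and Dlg3 was lower as well (-0.83). Dlg1 went the other way, at 32.5 ± 6.95 FPKM in hypothalamus, against 18.3 ± 1.34 FPKM in hippocampus (log2 difference 0.78), and Dlg2 overlapped.

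All 4 listed Shank and Dlgap genes had lower values in every hypothalamus library, against 17.6% of all symbols. Of the Dlgap genes outside the list, Dlgap2 was lower throughout (log2 difference -2.06), while Dlgap3 (0.57) and Dlgap4 (-0.18) overlapped. Shank1, the most abundant Shank here, had 31.6, 64.1, 54.4 and 68.1 FPKM in control hypothalamus, against 175, 233, 165 and 161 FPKM in control hippocampus, a log2 difference of -1.77. Shank3 (12.3 ± 2.86 FPKM in hypothalamus, against 29.6 ± 7.58 FPKM in hippocampus) and Dlgap1 (27.9 ± 2.30 FPKM, against 65.4 ± 18.4 FPKM) had log2 differences of -1.19 and -1.15. Shank2 was low throughout, at 0.436 ± 0.0684 FPKM in hypothalamus, against 2.29 ± 1.21 FPKM in hippocampus.

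Homer proteins tie Shank to group I metabotropic receptors. Homer3 had 8.80, 7.50, 6.25 and 8.45 FPKM in control hypothalamus, against 23.8, 30.4, 22.6 and 19.3 FPKM in control hippocampus, and its groups did not overlap (log2 difference -1.51). Homer2 was lower in hypothalamus by a like amount (-1.27).

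Nrgn encodes neurogranin, which holds calmodulin near the membrane and is abundant in forebrain neurons. It had 123, 167, 153 and 150.1 FPKM in control hypothalamus, where it was the highest of all 36 genes at the locus used, against 556, 426, 415 and 320.1 FPKM in control hippocampus, where Camk2a led. The groups did not overlap (log2 difference -1.51). Camk2b, the beta subunit of the kinase, was lower in hypothalamus by a log2 difference of -1.22 at the locus used. A further hypothalamus locus of nearly the same level existed, and with both loci added the difference was -0.31 and the groups overlapped. That sum sets 2 loci in hypothalamus against 1 in hippocampus, and the further locus was at 0 in control replicate 1. FPKM is scaled by length, so a sum over parts of 1 gene would overstate its level. Whether the loci of a symbol are such parts was not tested, here or in the other sums over loci. Adding loci left the other 10 genes with several loci on the same side and did not make their groups overlap. It moved the log2 difference of Grin2d to 2.42, of Slc17a6 to 3.15, of Grin2a to -3.19 and of Gria1 to -1.38, and those of the other 6 by at most 0.23. Nlgn1, an adhesion molecule of the receiving membrane, had 14.4, 13.1, 11.5 and 10.6 FPKM in control hypothalamus, against 11.1, 17.2, 15.5 and 11.3 FPKM in control hippocampus, with overlapping groups.

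A wider list of 66 other glutamate synapse genes was read in the same way. Of 59 with a value in both regions, 8 were higher and 28 lower in every control hypothalamus library, against 34.0% and 17.6% of 10844 symbols. Their median log2 difference was -0.50, against 0.20 over all symbols. Across the 36 genes measured in both regions, the order of the control means was partly shared (Spearman's rho 0.518, over genes, which are not independent replicates).

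The make-up of each receptor class within a library does not depend on how a table was scaled. Among the 4 GluN2 subunits, Grin2a held 7.56%, 6.21%, 6.401% and 2.72% of the summed FPKM in the control hypothalamus libraries, against 29.996%, 27.2%, 30.7% and 25.3% in control hippocampus. Grin2d held 28.2%, 38.3%, 33.7% and 29.6% in control hypothalamus, against 5.57%, 4.79%, 5.26% and 7.50% in control hippocampus. Neither set of shares overlapped, and the Grin2b value in the sum of hippocampus control replicate 2 had the deposited status FAIL. Both genes have further loci, and with loci added Grin2d held 28.2%, 54.9%, 53.6% and 47.3% in control hypothalamus, against 3.73% to 5.61% in control hippocampus. Grin2a then held 2.03% to 7.56% in control hypothalamus, against 30.9%, 43.2%, 40.3% and 44.1% in control hippocampus, so that Grin2d led the class in 3 of 4 control hypothalamus libraries. Grin2d had 2 loci in hypothalamus and 1 in hippocampus, and Grin2a had 1 and 3, so the limit on adding loci given above holds here too. For metabotropic receptors, Grm7 held 28.9% ± 3.00 in hypothalamus, against 17.1% ± 1.83 in hippocampus, and Grm5 held 12.9% ± 3.58, against 30.8% ± 6.16 (SD, n = 4 each).

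Kainate receptor messages were dominated by Grik5 in both regions, at 51.9% ± 3.01 in hypothalamus, against 61.7% ± 7.08 in hippocampus, while Grik3 held 10.6% ± 2.75, against 3.54% ± 1.04. Dlg4 held 56.1% ± 6.63 of the MAGUK sum in hypothalamus, against 66.8% ± 4.36 in hippocampus, and Dlg1 held 15.0% ± 3.45, against 4.96% ± 0.6245. Shank1 made up most of the Shank sum everywhere, at 80.6% ± 2.39 in hypothalamus, against 85.1% ± 3.92 in hippocampus. Homer3 held a like share in both regions (76.9% ± 2.17 in hypothalamus, against 77.1% ± 2.16 in hippocampus).

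**Figure D2:**
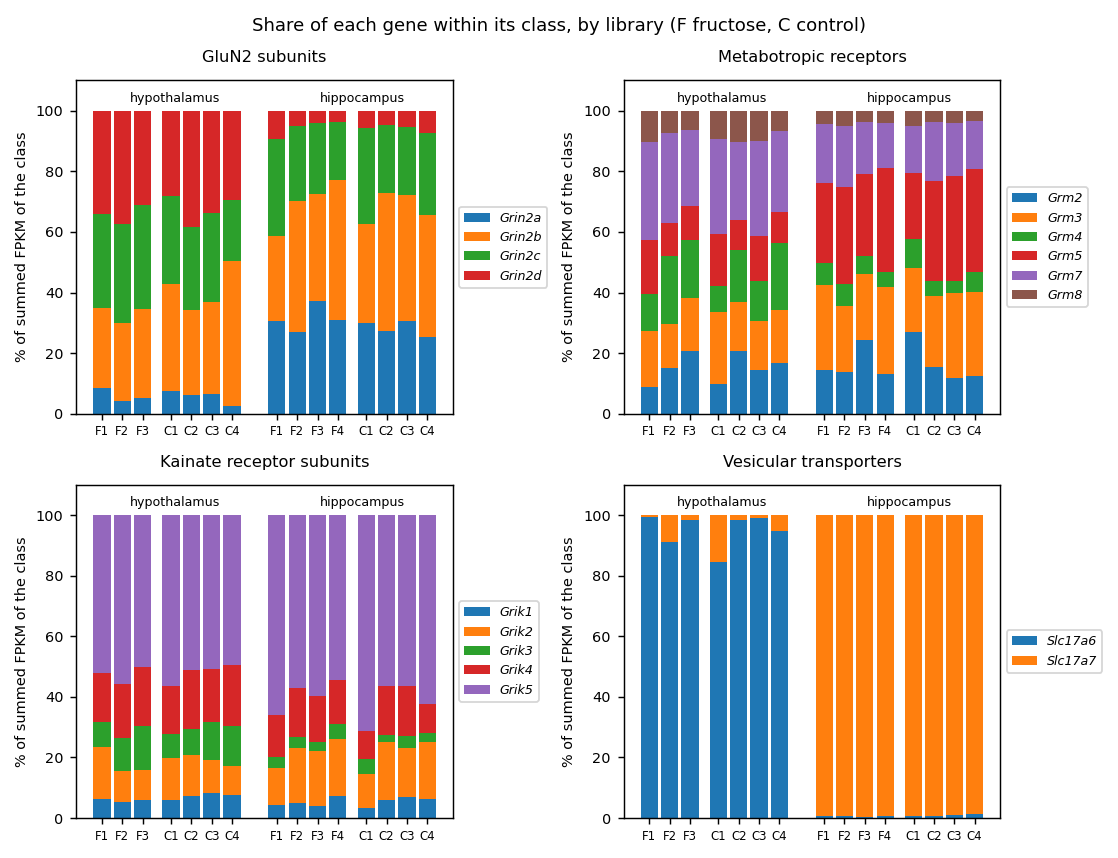
Share of each gene in the summed FPKM of its class, in percent, for every library of hypothalamus (left in each panel) and hippocampus (right), with fructose libraries (F) before control libraries (C). Grin2a takes a small part of the GluN2 bars in hypothalamus and a larger one in hippocampus, Grin2d the reverse, and Slc17a6 and Slc17a7 change places between the regions.

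Ratios of gene pairs within each library were tested with two-sided exact permutation tests, 16 in all, with Benjamini-Hochberg adjustment over them; 4 libraries against 4 or 3 cannot go below p = 0.0286. Camk2a to Camk2b was 1.11, 1.23, 1.26 and 1.17 in control hypothalamus, against 5.97, 6.13, 7.12 and 6.76 in control hippocampus. The groups did not overlap (mean log2 difference -2.44, exact p = 0.0286, adjusted p = 0.114). With the loci of each gene added, this ratio was 1.11, 0.695, 0.666 and 0.576 in control hypothalamus, against 5.98 to 7.13 in control hippocampus, a log2 difference of -3.14. The ratio of Grin2a to Grin2b was 0.215, 0.222, 0.209 and 0.0570 in control hypothalamus, against 0.917, 0.596, 0.742 and 0.629 in control hippocampus, also without overlap (log2 difference -2.20, or -2.93 with loci added). The deposited status of the Grin2b value behind the ratio of 0.596, in hippocampus control replicate 2, was FAIL. Slc17a6 to Slc17a7 was 5.49, 57.8, 106 and 17.7 in control hypothalamus, against 0.00727, 0.00628, 0.00950 and 0.0149 in control hippocampus (log2 difference 11.60).

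Grm3 to Grm5 was 1.38, 1.69, 1.10 and 1.74 in control hypothalamus, against 0.987, 0.717, 0.817 and 0.822 in control hippocampus (log2 difference 0.81). Each of these 4 pairs reached the smallest exact p that the design allows, 0.0286, and none passed after adjustment (0.114 each). Shank1 to Shank3 was 3.64, 5.25, 4.28 and 4.35 in control hypothalamus, against 4.42, 8.35, 5.63 and 7.56 in control hippocampus, and these ratios overlapped (log2 difference -0.53, exact p = 0.0571, adjusted p = 0.183).

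The fructose libraries were then compared with the control libraries of the same region, in hypothalamus first. No glutamate gene passed the test there (limma's moderated test over all 11498 loci, Benjamini-Hochberg adjusted p of at most 0.05; lowest adjusted p of the 36 genes 0.9998). None had an unadjusted p under 0.05, against 3.14% of all loci (1.02% higher and 2.12% lower), and 1 locus of all tested passed the threshold (0.0087%). No glutamate gene had groups that did not overlap, against 1.75% of loci with all fructose values higher and 1.58% with all lower. Fold changes lay above 0 for 23 of 36 genes (63.9%, against 51.5% of all loci), with a median of 0.07 on the log2 scale, against 0.01 over all loci. Their standard errors had a median of 0.23, and 28 of 36 fold changes lay within 0.2 of 0 on the log2 scale. Within-group SDs had a median of 0.33 over the glutamate genes, against 0.25 over all loci, from 0.08 for Camk2b to 1.41 for Slc17a7.

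**Figure D3:**
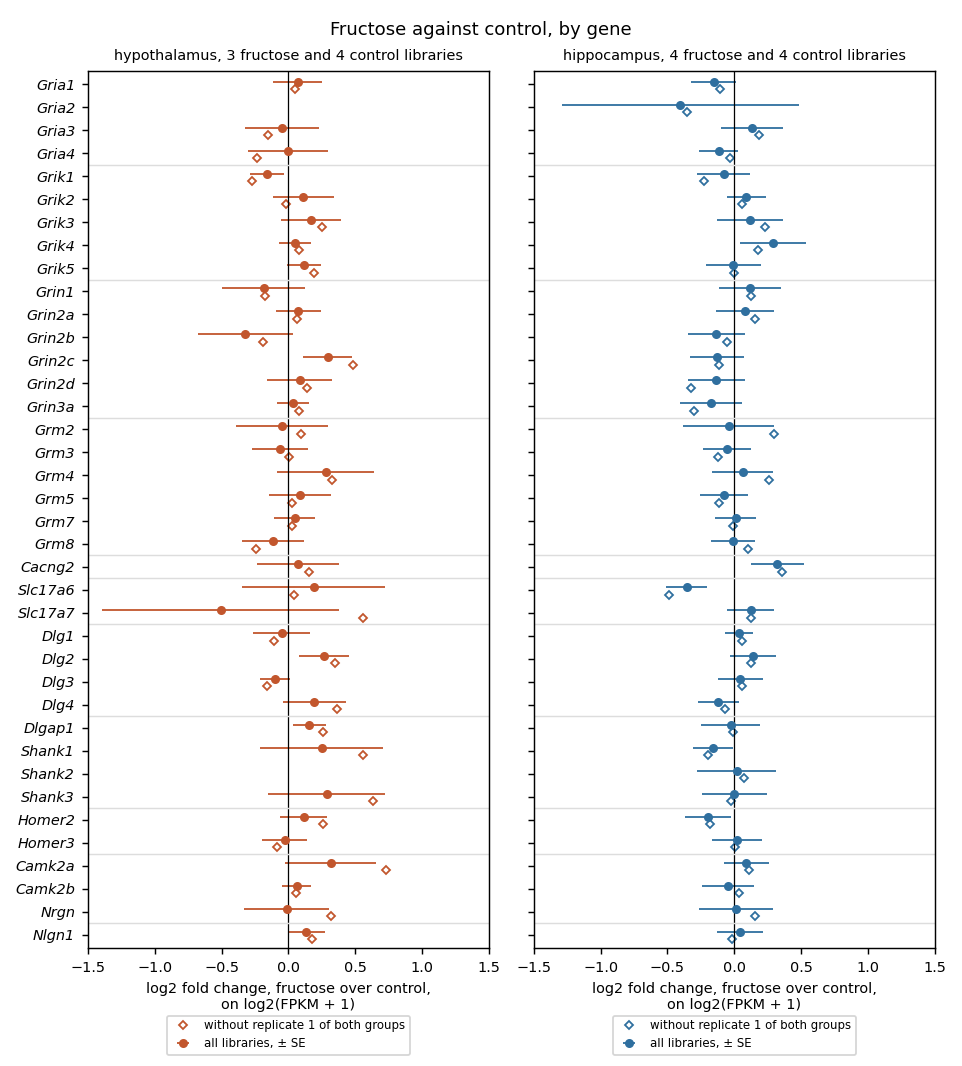
Log2 fold change of each glutamate gene, fructose over control, on the log2(FPKM + 1) scale, in hypothalamus (left) and hippocampus (right). Filled points use all libraries, with bars of ± 1 standard error, and open diamonds leave out replicate 1 of both groups; most points lie within 0.2 of 0, and the hypothalamus diamonds of Camk2a, Shank3, Shank1, Slc17a7 and Grin2c lie farthest to the right.

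The 5 genes with the smallest p in hypothalamus were Grin2c, Dlg2, Grik1, Dlgap1 and Nlgn1, described here and further on with the log2 fold change ± SE in parentheses. Grin2c, a GluN2 subunit found in the rodent brain also in astrocytes, had 9.41, 14.7 and 14.2 FPKM in fructose hypothalamus, against 10.1, 10.4, 8.52 and 11.4 FPKM in control hypothalamus. Fructose replicates 2 and 3 lay above all controls and replicate 1 below 3 of 4 (log2 fold change 0.29 ± 0.18, SE, adjusted p = 0.9998 in limma). A list of 5 astrocyte markers, none at 0, added up to between 926 and 1329 FPKM in fructose hypothalamus, against 836 to 1100.3 FPKM in control hypothalamus, with 4 of 5 fold changes above 0; its part in the Grin2c values was not tested. Dlg2, a MAGUK that binds NMDA receptor tails, had 39.8, 37.1 and 31.8 FPKM in fructose hypothalamus, against 41.1, 28.8, 25.9 and 25.7 FPKM in control hypothalamus. The groups overlapped, since the replicate 1 libraries were the highest of each (log2 fold change 0.27 ± 0.19).

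Grik1, a kainate subunit, had 5.86, 5.01 and 5.25 FPKM in fructose hypothalamus, against 5.31, 6.02, 6.63 and 6.603 FPKM in control hypothalamus (-0.16 ± 0.13). Dlgap1, the link between MAGUKs and Shanks, had 28.1, 34.8 and 30.9 FPKM in fructose hypothalamus, against 29.9, 27.0, 25.1 and 29.7 FPKM in control hypothalamus (0.16 ± 0.13). Nlgn1 had 14.3, 13.6 and 13.0 FPKM in fructose hypothalamus, against 14.4, 13.1, 11.5 and 10.6 FPKM in control hypothalamus (0.13 ± 0.14). All of these groups overlapped, and each of the 5 genes had the same adjusted p.

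By class in hypothalamus, the median log2 fold change was -0.004 for 3 AMPA subunits, 0.11 for 5 kainate subunits, 0.06 for 6 NMDA subunits and 0.00 for 6 metabotropic receptors. It was 0.07 for 4 MAGUKs, 0.25 for 3 Shank and Dlgap genes, 0.04 for 2 Homer genes and 0.06 for 3 genes of calmodulin signalling. Gria1 had 49.7, 62.6 and 65.6 FPKM in fructose hypothalamus, against 41.9, 62.0, 62.1 and 61.5 FPKM in control hypothalamus. Grin1 had 87.5, 136 and 146 FPKM in fructose hypothalamus, against 86.0, 164, 125 and 199.6 FPKM in control hypothalamus. Both overlapped, with log2 fold changes of 0.07 and -0.18.

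Grik5 had 47.6, 51.8 and 44.2 FPKM in fructose hypothalamus, against 51.5, 41.7, 41.2 and 42.4 FPKM in control hypothalamus (0.12 ± 0.13). Grm7 had 25.3, 24.6 and 18.7 FPKM in fructose hypothalamus, against 24.7, 23.1, 19.0 and 21.1 FPKM in control hypothalamus (0.05 ± 0.15). The replicate 1 controls of Grik5 and Grm7 were the highest of the control group, and the groups overlapped. Cacng2 had 29.7, 52.2 and 53.8 FPKM in fructose hypothalamus, against 27.5, 50.1, 36.9 and 58.5 FPKM in control hypothalamus (0.07 ± 0.31). Homer3 had 8.95, 6.21 and 7.61 FPKM in fructose hypothalamus, against 8.80, 7.50, 6.25 and 8.45 FPKM in control hypothalamus (-0.03 ± 0.17). These groups overlapped too, and in each of these genes the fold change was smaller than its standard error. Slc17a6 followed the replicate number, with 90.9, 34.2 and 28.2 FPKM in fructose hypothalamus, against 83.6, 41.1, 30.5 and 21.7 FPKM in control hypothalamus (0.19 ± 0.53). Its replicate 1 library was the highest of both groups, which overlapped.

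Camk2a, Shank1, Nrgn and Dlg4 varied widely between hypothalamus libraries. Camk2a had 79.1, 239 and 173 FPKM in fructose hypothalamus, against 110.5, 134, 121 and 113 FPKM in control hypothalamus, so that the fructose group held the highest and the lowest value (0.31 ± 0.34). Shank1 had 28.8, 109.7 and 76.3 FPKM in fructose hypothalamus, against 31.6, 64.1, 54.4 and 68.1 FPKM in control hypothalamus (0.25 ± 0.46). Nrgn had 81.4, 217 and 176 FPKM in fructose hypothalamus, against 123, 167, 153 and 150.1 FPKM in control hypothalamus (-0.01 ± 0.32). In these 3 genes fructose replicate 2 was the highest of the 7 libraries, and fructose replicate 1 the lowest. Dlg4 showed the same order, with 95.0, 186 and 149 FPKM in fructose hypothalamus, against 98.5, 134, 131 and 124 FPKM in control hypothalamus (0.19 ± 0.24). Fructose replicate 2 also had the highest sum of a list of 6 thalamus markers. This sum was 65.2 FPKM, against 27.9 to 44.3 FPKM in the other hypothalamus libraries. Of these markers, Tcf7l2, Prkcd and Lef1 were highest in fructose replicate 2, while Lhx9, Gbx2 and Rora were highest in a control library. The part of these markers in the Camk2a, Shank1, Nrgn and Dlg4 values was not tested. The deposited status of the Camk2a value of fructose replicate 2 was FAIL, and without that library the log2 fold change of Camk2a was -0.03.

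**Figure D4:**
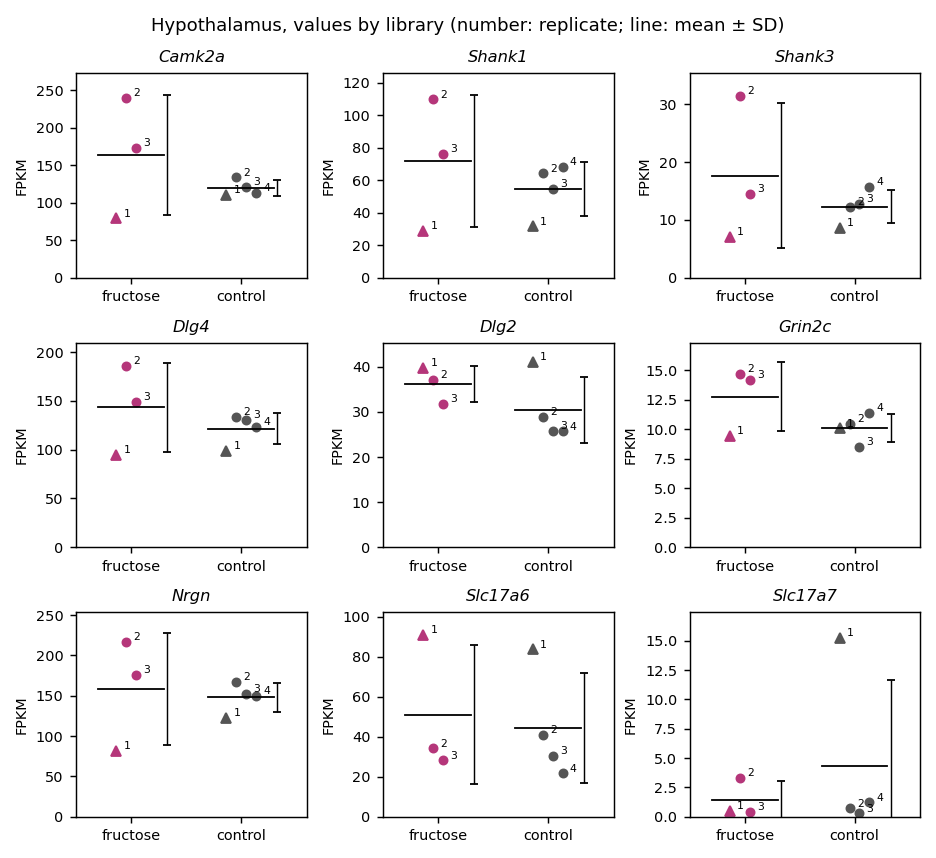
FPKM of 9 glutamate genes in each hypothalamus library, fructose left of control, with replicate numbers beside the points, triangles for replicate 1, a line at the mean and a bar of ± 1 SD. Fructose replicate 1 is the lowest and fructose replicate 2 the highest library for Camk2a, Shank1, Shank3, Dlg4 and Nrgn, both replicate 1 libraries are the highest for Slc17a6, and control replicate 1 alone is high for Slc17a7.

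Without the replicate 1 libraries, 2 fructose and 3 control libraries of hypothalamus remained. Then 9 of 36 genes had all fructose values higher (25.0%, against 14.8% of loci): Gria1, Grik5, Grin2c, Dlg2, Dlg4, Dlgap1, Shank1, Camk2a and Nrgn. Grik1 and Dlg3 had all values lower (5.56%, against 12.7%). Unadjusted p-values under 0.05 were found for 5 genes (13.9%, against 9.37%), all with positive fold changes: Camk2a (0.73, adjusted p = 0.460), Grin2c (0.48, adjusted p = 0.483), Shank1 (0.56, adjusted p = 0.491), Dlg2 (0.35, adjusted p = 0.499) and Dlg4 (0.36, adjusted p = 0.499), in limma. None passed after adjustment over all loci, while 0.0174% of all loci did. When replicate number entered the limma fit as a block, 1 of 36 genes had an unadjusted p under 0.05 (2.78%, against 6.6% of loci). It was Grm4 (log2 fold change 0.48, adjusted p = 0.530 in limma), and none passed after adjustment. No fructose library of number 4 was analysed there, so control replicate 4 did not inform the blocked fold changes. They rest on replicates 1 to 3.

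In hippocampus no glutamate gene passed the test (lowest adjusted p of 38 genes 0.9999, limma over 11385 loci), nor did any locus. Slc17a6 alone had an unadjusted p under 0.05 (2.63% of the genes, against 0.808% of all loci in either direction and 0.474% lower in fructose). It had 5.07, 4.01, 3.70 and 4.46 FPKM in fructose hippocampus, against 4.89, 4.83, 6.47 and 7.19 FPKM in control hippocampus. The groups overlapped through fructose replicate 1 (log2 fold change -0.36 ± 0.15, SE, adjusted p = 0.9999 in limma). A list of 6 markers of thalamus, a tissue rich in Slc17a6, was summed as well. It added up to between 18.8 and 50.2 FPKM in fructose hippocampus, against 25.1 to 50.2 FPKM in control hippocampus. Of the 5 thalamus markers tested, 1 had a fold change above 0, with a median log2 fold change of -0.05. The part of these markers in the Slc17a6 values was not tested. No glutamate gene had groups that did not overlap, against 0.255% of loci with all fructose values higher and 0.413% with all lower. Fold changes were above 0 for 19 genes (50%, against 48.6% of all loci) and below 0 for 19, with a median of -0.004, as over all loci. Their standard errors had a median of 0.20, and 34 of 38 lay within 0.2 of 0.

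Next in order of p came Cacng2, Grik4, Homer2 and Shank1. Cacng2 had 2.84, 4.70, 5.13 and 4.15 FPKM in fructose hippocampus, against 2.33, 4.05, 3.71 and 2.60 FPKM in control hippocampus (0.32 ± 0.20). Within each replicate number its fructose value was the higher one, and it did not pass with that number as a block either (adjusted p = 0.9997 in limma). Grik4, a kainate subunit of the high-affinity type, had 17.8, 15.7, 16.4 and 14.6 FPKM in fructose hippocampus, against 11.3, 18.2, 17.5 and 7.76 FPKM in control hippocampus (0.29 ± 0.25). Homer2 had 5.29, 4.69, 5.96 and 8.48 FPKM in fructose hippocampus, against 6.51, 7.92, 7.66 and 6.05 FPKM in control hippocampus (-0.20 ± 0.17). Shank1 had 169.8, 145, 154 and 185 FPKM in fructose hippocampus, against 175, 233, 165 and 161 FPKM in control hippocampus (-0.16 ± 0.15). All of these groups overlapped.

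Camk2a, Slc17a7 and Gria1, among the most abundant glutamate genes of hippocampus, lay close between the groups. Camk2a had 1563, 1361, 1863 and 1747 FPKM in fructose hippocampus, against 1519, 1756, 1691 and 1193 FPKM in control hippocampus (0.09 ± 0.17). Slc17a7 had 727, 696, 805 and 586 FPKM in fructose hippocampus, against 673, 768, 681 and 482 FPKM in control hippocampus (0.12 ± 0.17). Gria1 had 76.8, 79.9, 110.5 and 109 FPKM in fructose hippocampus, against 94.8, 116, 118 and 87.8 FPKM in control hippocampus (-0.15 ± 0.17). In each of these genes the fold change was smaller than its standard error. The deposited status of 3 Gria1 values (fructose replicate 2 and control replicates 2 and 3) was FAIL, and leaving out each of them in turn gave Gria1 log2 fold changes of -0.08, -0.10 and -0.09.

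Dlg4 had 247, 197, 247 and 220.4 FPKM in fructose hippocampus, against 298, 268, 235 and 197 FPKM in control hippocampus (-0.12 ± 0.15). Grin1 had 127, 109, 129 and 91.1 FPKM in fructose hippocampus, against 119, 121, 125 and 64.4 FPKM in control hippocampus (0.12 ± 0.23). Grm5 had 15.8, 16.7, 17.5 and 23.5 FPKM in fructose hippocampus, against 15.3, 21.9, 24.1 and 16.7 FPKM in control hippocampus (-0.08 ± 0.18). All 3 overlapped, and control replicate 4 was the lowest library for Grin1. Grik5 had 86.2, 55.2, 65.2 and 54.2 FPKM in fructose hippocampus, against 88.0, 64.0, 60.6 and 50.5 FPKM in control hippocampus (-0.01 ± 0.21). Homer3 had 24.9, 25.0, 30.1 and 17.7 FPKM in fructose hippocampus, against 23.8, 30.4, 22.6 and 19.3 FPKM in control hippocampus (0.02 ± 0.19). Nlgn1 had 13.2, 14.2, 12.0 and 17.1 FPKM in fructose hippocampus, against 11.1, 17.2, 15.5 and 11.3 FPKM in control hippocampus (0.05 ± 0.17). These overlapped as well, and all of these fold changes were within their standard errors.

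The calcium-limiting subunit Gria2 had 1.35, 15.2, 9.41 and 24.5 FPKM in fructose hippocampus, against 2.44, 24.7, 10.4 and 29.8 FPKM in control hippocampus. Its values followed the replicate number, with each fructose library below the control library of the same number; the log2 fold change was -0.40 ± 0.88, smaller than its standard error. Under a block for replicate number, Gria2 and Cacng2 were the 2 of 38 genes with an unadjusted p under 0.05 (5.26%, against 1.78% of loci), and none passed after adjustment (adjusted p = 0.9997 for Gria2, limma).

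Without the replicate 1 libraries, Grm4 and Cacng2 had all fructose values higher (5.26%, against 1.44% of loci) and Grin2d and Slc17a6 all lower (5.26%, against 2.61%). Slc17a6 (-0.49) and Grin2d (-0.32) then had unadjusted p-values under 0.05 in limma (5.26%, against 1.33%), and neither passed after adjustment (adjusted p = 1.0 each). The median log2 fold change in hippocampus was -0.13 for 4 AMPA subunits, 0.09 for 5 kainate subunits, -0.13 for 6 NMDA subunits, -0.03 for 6 metabotropic receptors, 0.04 for 4 MAGUKs and -0.01 for 4 Shank and Dlgap genes. In the same libraries, 3 markers of GABA neurons added up to between 111 and 128 FPKM in fructose, against 109 to 205 FPKM in control, all with fold changes below 0, and 5 oligodendrocyte markers to between 1568 and 3441 FPKM in fructose, against 2226 to 4270.5 FPKM in control, also all below 0. No marker of either list was at 0, and their part in the glutamate genes' values was not tested.

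Shares within a class were also set side by side for fructose and control libraries. Of 31 shares compared in hypothalamus, that of Grin2c among GluN2 subunits was the only one whose groups did not overlap, at 30.8%, 32.5% and 34.1% in fructose hypothalamus, against 29.1%, 27.6%, 29.3% and 20.0% in control hypothalamus. Of 32 shares in hippocampus, that of Gria3 among AMPA subunits alone did not overlap, at 29.1%, 31.3%, 29.4% and 33.2% in fructose hippocampus, against 25.0%, 28.1%, 24.5% and 27.1% in control hippocampus. With the loci of each gene added, neither share stayed apart: Grin2c held 30.8%, 26.2% and 26.5% in fructose hypothalamus, against 29.1%, 20.1%, 20.5% and 14.9% in control hypothalamus. Gria3 held 29.1%, 24.6%, 23.2% and 25.0% in fructose hippocampus, against 25.0%, 21.3%, 19.5% and 20.0% in control hippocampus. These shares were picked out after their values were seen and were not tested. In the AMPA sums of hippocampus, the Gria1 values of fructose replicate 2 and control replicates 2 and 3 had the deposited status FAIL. Of the 11 ratio tests between fructose and control, none passed: exact p-values ran from 0.143, for Slc17a6 to Slc17a7 in hippocampus (0.00698, 0.00577, 0.00460 and 0.00760 in fructose, against 0.00727, 0.00628, 0.00950 and 0.0149 in control), to 0.914.

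The fructose effect was also compared between the regions, as an interaction over 9931 symbols. None of the 36 glutamate genes measured in both regions had an unadjusted p under 0.05 (against 2.31% of all symbols), and none passed after adjustment. The smallest p was that of Grin2c, whose fold change was 0.29 in hypothalamus and -0.13 in hippocampus (difference 0.42 ± 0.28 on the log2 scale, SE, adjusted p = 0.9999). Without the replicate 1 libraries, Grin2c (difference 0.60) and Shank1 (0.75) had unadjusted p-values under 0.05 (5.56% of the 36 genes, against 3.81% of all symbols), and neither passed after adjustment (adjusted p = 0.9999 each, limma).

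Of the 66 other glutamate synapse genes, 60 were tested in each region and none passed in either (limma). In hypothalamus 42 had fold changes above 0 and 18 below, with a median of 0.08, and those with the smallest p were Ctnnd2 (0.32 ± 0.17), Cdh2 (0.25 ± 0.13), Grid1 (0.20 ± 0.12) and Neto2 (0.28 ± 0.18). Only Cdh2 and Grid1 had all fructose values higher in hypothalamus, 2 of 60 (3.33%, against 1.75% of loci), and were picked out for that after their values were seen. Cdh2, a cadherin that joins both sides of the synapse, had 49.9, 67.5 and 54.0 FPKM in fructose hypothalamus, against 47.7, 45.0, 48.8 and 49.3 FPKM in control hypothalamus. Grid1, an orphan receptor of the glutamate family, had 10.2, 10.4 and 10.3 FPKM in fructose hypothalamus, against 9.92, 9.51, 8.34 and 7.85 FPKM in control hypothalamus. In hippocampus 34 lay above 0 and 26 below, with a median of 0.02, led by Slc17a8 (0.33 ± 0.16), Grip2 (-0.23 ± 0.19), Camk4 (0.25 ± 0.21) and Cacng3 (0.21 ± 0.18).

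Several glutamate genes were split over loci, and in some of them a further locus was at 0 in exactly the replicate 1 libraries. In hypothalamus the further locus of Camk2b had 0, 105 and 125.9 FPKM in the fructose libraries, against 0, 119, 124 and 163 FPKM in the control libraries. The further locus of Grin2d had 0, 10.8 and 11.9 FPKM in fructose hypothalamus, against 0, 13.9, 12.5 and 19.2 FPKM in control hypothalamus. Camk2a showed the same pattern, and Slc17a6 was near 0 at its further locus in both replicate 1 libraries. In hippocampus the further locus of Gria1 had 0, 45.5, 52.8 and 77.1 FPKM in the fructose libraries, against 0, 73.2, 51.3 and 67.3 FPKM in the control libraries. The further locus of Grin2a had 0, 12.6, 10.8 and 18.2 FPKM in fructose hippocampus, against 0, 17.5, 9.95 and 14.0 FPKM in control hippocampus.

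Among all tested loci, 93 in hypothalamus (0.809%) and 166 in hippocampus (1.46%) were at 0 in both replicate 1 libraries and above 0 in every other one. With the loci of each symbol added, no glutamate gene passed the fructose test in either region.

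**Figure D5:**
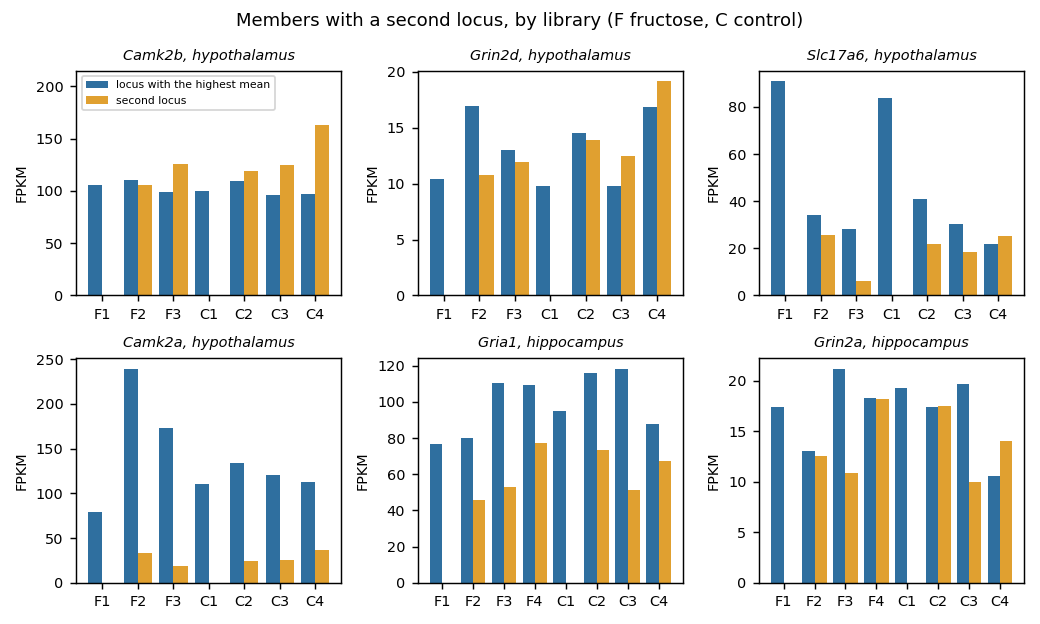
FPKM of the locus with the highest mean and of the further locus of 6 glutamate genes, by library, fructose (F) before control (C). The further locus is at 0, or for Slc17a6 near 0, in F1 and C1 and above 0 in every other library.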

How the data were processed

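The deposited tables, 1 for each region, hold FPKM per locus, made by the authors with TopHat, Bowtie, Cufflinks, Cuffdiff, TopHat2 and Bowtie2 on rn5, per the submitters' processing notes. The tables' columns were matched to the 16 labelled samples by name, and 15 had one. From the FPKM, log2(FPKM + 1) was computed for loci with a mean of at least 1 FPKM. These values were tested with limma 3.58.1 (R 4.3.3, moderated test with a trend, Benjamini-Hochberg adjustment over all loci, adjusted p of at most 0.05). The test was first checked on simulated data with independent noise and large added changes. That check does not cover shifts shared between libraries or small changes. Fold changes on the log2(FPKM + 1) scale understate the change of low genes. Ratios were tested with exact permutation tests (Python 3.11.15) and figures drawn with matplotlib 3.10.9.

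The gene list, the marker lists and the tests were chosen with earlier results of these data known. Library values are given for genes with an unadjusted p under 0.05, filled to the 5 smallest per region. They are also given for the highest control mean of each class and for the 8 largest region differences. Of other glutamate synapse genes the 4 smallest p per region are named, and Dlgap2, Dlgap3 and Dlgap4 for the region difference. FPKM values hold no read counts, so no counting error or detection floor was computed.

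Deviations from the group means were correlated between the fructose and control libraries of the same replicate number. The correlation was 0.848, 0.488 and 0.456 for numbers 1 to 3 in hypothalamus, and 0.892, 0.208, 0.481 and 0.41 for numbers 1 to 4 in hippocampus. No correlation was computed between libraries of different numbers. Deviations within a group offset each other, so the replicate 1 libraries, which stood apart, can also raise the values of the other numbers. These values therefore do not show a pairing, and the labels give the numbers no meaning.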

Additional observations from a re-analysis of the deposited data

Results flagged for a closer look

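In 7 of 112 groups of 4 libraries, 1 library lay far from the other libraries of its group, where chance gives about 5.6. In control hypothalamus this was replicate 1 for Gria1 (41.9 FPKM, below the others), Grik5 (51.5 FPKM, above), Slc17a7 (15.2 FPKM, above) and Homer2 (2.79 FPKM, above). In hippocampus it was control replicate 4 for Grin1 (64.4 FPKM, below), fructose replicate 1 for Grin2d (5.19 FPKM, above) and control replicate 1 for Grm4 (6.74 FPKM, above). Of these 7 cases, 6 fell in a replicate 1 library, and these libraries stood apart over many loci.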

How the results depend on the processing

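No glutamate gene passed the adjusted threshold for fructose in either region, or for the difference between the regions, under any alternative run. With no gene called, no called value could change sign. Fold changes that were not called did so in both regions. In hypothalamus Slc17a7 went from -0.51 to 0.56 without both replicate 1 libraries, and Camk2a from 0.31 to -0.03 without fructose replicate 2. In hippocampus, without both replicate 1 libraries, Grm2 went from -0.04 to 0.29 and Grm8 from -0.01 to 0.10. Among all loci in hypothalamus, 1 passed higher and 0 lower. The higher count was 0 with a mean of at least 5 FPKM, 2 with the replicate block and 0 to 2 when each library was left out. The lower count was 1 without both replicate 1 libraries and 0 to 1 when each was left out. In hippocampus the lower count was 0 to 1 when each library was left out, and for the regional difference in fructose effect the higher count was 0 to 1.

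The number of glutamate genes with an unadjusted p under 0.05 moved more. It is given here with its share, against the share of all loci. In hypothalamus (0 of 36, 0% against 3.14%) it was 10 with array weights (27.8%, against 18.3%), 1 with the replicate block (2.78%, against 6.6%), 5 without both replicate 1 libraries (13.9%, against 9.37%), and 0 to 5 when each library was left out, the 5 without fructose replicate 1 (13.9%, against 5.89%). In hippocampus (1 of 38, 2.63% against 0.808%) it was 0 with no filter (against 1.35%), 0 with a mean of at least 5 FPKM (against 0.509%), 3 with array weights (7.89%, against 5.78%), 2 with the replicate block (5.26%, against 1.78%), 2 without both replicate 1 libraries (5.26%, against 1.33%), and 0 to 3 when each was left out, the 3 without fructose replicate 1 (7.89%, against 0.922%). For the regional difference in fructose effect (0 of 36, 0% against 2.31% of symbols) it was 1 with the replicate block (2.78%, against 3.36%), 1 with a batch term for replicate 1 (2.78%, against 3.80%), 2 without both replicate 1 libraries (5.56%, against 3.81%), and 0 to 4 when each was left out, the 4 without hypothalamus fructose replicate 1 (11.1%, against 3.29%). The cause was not tested.

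Ratios between the control regions kept their direction. Without both replicate 1 libraries the log2 differences were -2.238 for Grin2a to Grin2b, 12.3 for Slc17a6 to Slc17a7, -2.449 for Camk2a to Camk2b and 0.916 for Grm3 to Grm5. With the replicate block they stayed at -2.20, 11.60, -2.44 and 0.81. Both control groups hold the same replicate numbers, so a block cannot change the difference of their means. The exact tests cannot go below p = 0.10 without replicate 1 and 0.125 with the block. Leaving out each library gave 0.724 to 0.943 for Grm3 to Grm5 and -0.705 to -0.399 for Shank1 to Shank3, which without hippocampus control replicate 1 reached the smallest exact p, 0.0286. None of the fructose ratios passed in any of these settings, and some moved past 0. Without both replicate 1 libraries, Slc17a6 to Slc17a7 was -0.899 in hypothalamus (0.84 with all) and Grm3 to Grm5 was -0.0142 in hippocampus (0.02 with all), and with the replicate block Grin2a to Grin2b was -0.0217 in hypothalamus (0.46 with all). Leaving out each library in hypothalamus gave -0.205 to 0.0922 for Shank1 to Shank3, -0.0217 to 0.660 for Grin2a to Grin2b, -0.119 to 1.99 for Slc17a6 to Slc17a7, -0.310 to 0.00292 for Grm3 to Grm5 and -0.0538 to 0.712 for Camk2a to Camk2b. In hippocampus it gave -0.0972 to 0.118 for Grm3 to Grm5 and -0.444 to 1.05 for Gria1 to Gria2.

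The region count of 9 higher and 17 lower of 37, against 34.0% and 17.6% of all symbols, was 7 and 20 at a common FPKM sum (against 22.7% and 27.7%) and 9 and 16 with loci added (against 34.3% and 18.5%). It was 9 and 19 in fructose libraries (against 34.5% and 18.6%) and 10 and 19 without replicate 1 (against 41.7% and 27.8%). FPKM tables give no depth, so low genes such as Slc17a7 in hypothalamus have an unknown counting error. The array weights and the leave-one-out fits that leave few libraries assume a spread shared with the other libraries.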
